A study of Homo sapiens with 24 samples.

Results

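SLC12A7, NELL1, OSBPL3, CGNL1, HSPA12A, MAN1C1 and PTX3 are 7 of the 17199 genes with a symbol on the arrays, chosen because they shifted alike in 2 neuroblastoma cell lines. They were chosen by the mean log2 difference between HOXC9-labelled arrays and arrays labelled GFP over 6 to 96 h, which had to have the same sign and a size of 1 or more in both lines. That criterion was met by 201 genes in all, 1.17% of those measured. Of these, 45 had a mean level over all arrays above the 40th percentile of genes (log2 7.28), and all 7 members were among them. Because the contrast chose the members, their HOXC9 minus GFP differences are given as a description, without a test.

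Gene expression was profiled in IMR-32 cells, which carry an amplified MYCN oncogene, and in SK-N-AS cells, both grown from human neuroblastoma, a tumour of the sympathetic lineage. The 4 groups were IMR-32 cells labelled with the transgene HOXC9, IMR-32 cells with the control transgene GFP (green fluorescent protein), SK-N-AS cells labelled HOXC9 and SK-N-AS cells with GFP. Each group had 1 one-colour array at 0 h and 1 each at 6, 12, 24, 48 and 96 h, so hours stood in for replicates. The labels name neither the vector nor clones, and they do not say whether separate dishes were used for each hour. Each p-value therefore reflects the spread across hours, which may be technical. The fits hold both lines and use 1 spread per gene, so SK-N-AS scatter also enters the IMR-32 p-values.

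Levels below are log2 intensities, in which a step of 1 is a doubling of brightness, and their precision is limited by the number of arrays and is lower for dim probes. All arrays shared 1 intensity distribution, with a median of 114 units. The HOXC9 probe stood between 9.86 and 10.34 in the HOXC9 arrays of IMR-32, against 5.63 to 6.25 in the GFP arrays. In SK-N-AS it went against the label, at 11.63 to 11.90 in the HOXC9-labelled arrays and 12.09 to 12.47 in the GFP arrays. Every direction drawn from the SK-N-AS labels below carries that limit. The HOXC9-labelled SK-N-AS arrays at 6, 12 and 24 h also stood apart from those at 0, 48 and 96 h, with correlations over genes of 0.983 to 0.988 between these sets and 0.990 to 0.997 within them. The sympathetic markers were present: 7 of 7 measured lay above log2 7.28 in both arms of IMR-32, and 6 of 7 in both arms of SK-N-AS. The marker below that level in SK-N-AS was TH, the first enzyme of catecholamine synthesis, which averaged 4.80 in the HOXC9-labelled arrays and 3.54 in the GFP arrays. Sympathetic markers went both ways between these arms. DBH averaged 7.91 against 11.46 in the GFP arrays and HAND2 14.20 against 14.69, but GATA3 averaged 11.13 against 10.77 and MYCN 9.57 against 8.83. SK-N-AS also showed PTPRC, a leukocyte marker, at a mean of 12.52 in the HOXC9-labelled arrays and 12.58 in the GFP arrays.

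HOXC9 belongs to the homeobox transcription factors, which bind short AT-rich sequences and specify position along the body axis. The 7 genes do not form a single pathway. NELL1 and PTX3 encode secreted proteins, SLC12A7 and OSBPL3 act in ion and lipid transport, CGNL1 encodes a plaque protein of cell junctions, HSPA12A a distant member of the HSP70 chaperone family and MAN1C1 a Golgi enzyme that trims N-linked glycans. They lie on chromosomes 5 (SLC12A7), 11 (NELL1), 7 (OSBPL3), 15 (CGNL1), 10 (HSPA12A), 1 (MAN1C1) and 3 (PTX3).

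RefSeq promoter windows of 300 bases (250 before and 50 after an annotated start, GRCh38.p14) were matched for 6 of the members, with 9 windows in all. The 3 windows below belong to the members with a single annotated start and are shown because they hold both CG-rich and CG-poor sequence, with each CG dinucleotide in capitals. They come from chr5:1112014-1112313 on the minus strand (SLC12A7), chr15:57376255-57376554 on the plus strand (CGNL1) and chr3:157436600-157436899 on the plus strand (PTX3).
SLC12A7: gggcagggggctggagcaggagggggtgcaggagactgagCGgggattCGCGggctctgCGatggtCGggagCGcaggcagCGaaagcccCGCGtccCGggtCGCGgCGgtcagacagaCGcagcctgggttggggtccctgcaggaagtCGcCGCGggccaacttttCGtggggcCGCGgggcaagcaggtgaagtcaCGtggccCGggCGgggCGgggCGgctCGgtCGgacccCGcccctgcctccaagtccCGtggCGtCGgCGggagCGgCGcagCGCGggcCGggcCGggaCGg
CGNL1: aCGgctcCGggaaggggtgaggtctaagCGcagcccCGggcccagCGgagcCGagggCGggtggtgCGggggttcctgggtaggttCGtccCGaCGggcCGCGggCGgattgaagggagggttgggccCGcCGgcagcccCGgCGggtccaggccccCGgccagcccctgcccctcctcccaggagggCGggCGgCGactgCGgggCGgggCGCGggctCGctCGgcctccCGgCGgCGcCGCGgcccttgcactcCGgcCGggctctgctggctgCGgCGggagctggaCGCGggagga
PTX3: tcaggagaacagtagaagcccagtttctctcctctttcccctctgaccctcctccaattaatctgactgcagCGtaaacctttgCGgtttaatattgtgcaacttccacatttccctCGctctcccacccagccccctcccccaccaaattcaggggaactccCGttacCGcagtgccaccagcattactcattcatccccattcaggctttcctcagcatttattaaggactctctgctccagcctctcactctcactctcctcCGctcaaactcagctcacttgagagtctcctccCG
The SLC12A7 window holds 39 CG dinucleotides at a GC content of 76.3%, and the CGNL1 window also holds 39 at 80.0%. The PTX3 window holds 7 at 52.3%, against a median of 14 CG dinucleotides and a GC content of 58.7% over all 35116 windows. SLC12A7 was higher and CGNL1 lower in the HOXC9-labelled arrays, and a link of CG count with direction was not tested. The other members had 2 windows each, with 30 and 3 CG dinucleotides for OSBPL3, 49 and 20 for HSPA12A, and 57 and 5 for MAN1C1, and 6 of the 9 windows lay above the median. Of the HOX-type motifs searched on both strands, TTTACGA (in 0.541% of all windows), TTTATGG (2.54%) and TGATTTA (2.89%) were in 0 of the 9. The shorter TTTAT, which TTTATGG contains, was in 34.9% of all windows and in 1 of the 9, that of PTX3, starting 30 bases before the annotated start. A match or its absence describes the letters of the window and nothing more.

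SLC12A7 encodes the potassium-chloride cotransporter KCC4, which lets cells lose salt and water. In IMR-32 its brightest probe read 12.44, 12.60 and 12.83 (lowest, median and highest of 6 arrays) in the HOXC9 arrays, against 9.07, 9.31 and 9.95 in the GFP arrays. The SK-N-AS values were 14.72, 15.21 and 15.71 in the HOXC9-labelled arrays, against a median of 11.54 and a highest of 12.18 in the GFP arrays. The arms did not overlap in either line, as was so for 25.6% of all genes in IMR-32 cells and 20.1% in SK-N-AS. Over 6 to 96 h SLC12A7 was higher by 3.27 ± 0.20 (SD, n = 5 hours) in IMR-32, or 9.62-fold, and by 3.54 ± 0.58 in SK-N-AS, or 11.6-fold. The HOXC9-labelled SK-N-AS arrays fell into a lower set at 6, 12 and 24 h, at 14.72 to 14.85, and a higher set at 0, 48 and 96 h, at 15.58 to 15.71. Both other SLC12A7 probes gave the same sign, at 2.61 and 2.34 in IMR-32 and 3.46 and 2.86 in SK-N-AS.

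OSBPL3 encodes an oxysterol-binding-protein relative that moves lipids at contacts between the endoplasmic reticulum and the plasma membrane. It read 7.90, 8.03 and 8.11 in the HOXC9 arrays of IMR-32, against 5.88, 6.13 and 6.29 in the GFP arrays. Its SK-N-AS values were 10.49, 10.52 and 10.74 in the HOXC9-labelled arrays, against 8.35, 8.52 and 8.87 in the GFP arrays. Each arm was narrow, with no overlap in either line. The mean difference of OSBPL3 was 1.94 ± 0.20 in IMR-32 cells and 1.96 ± 0.20 in SK-N-AS (SD, n = 5 hours each), or 3.83-fold and 3.89-fold. Its other probes gave 1.76 and 1.55 in IMR-32 and 1.91 and 2.19 in SK-N-AS, with no overlap of the arms for any of the 3 probes.

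**Figure D1:**
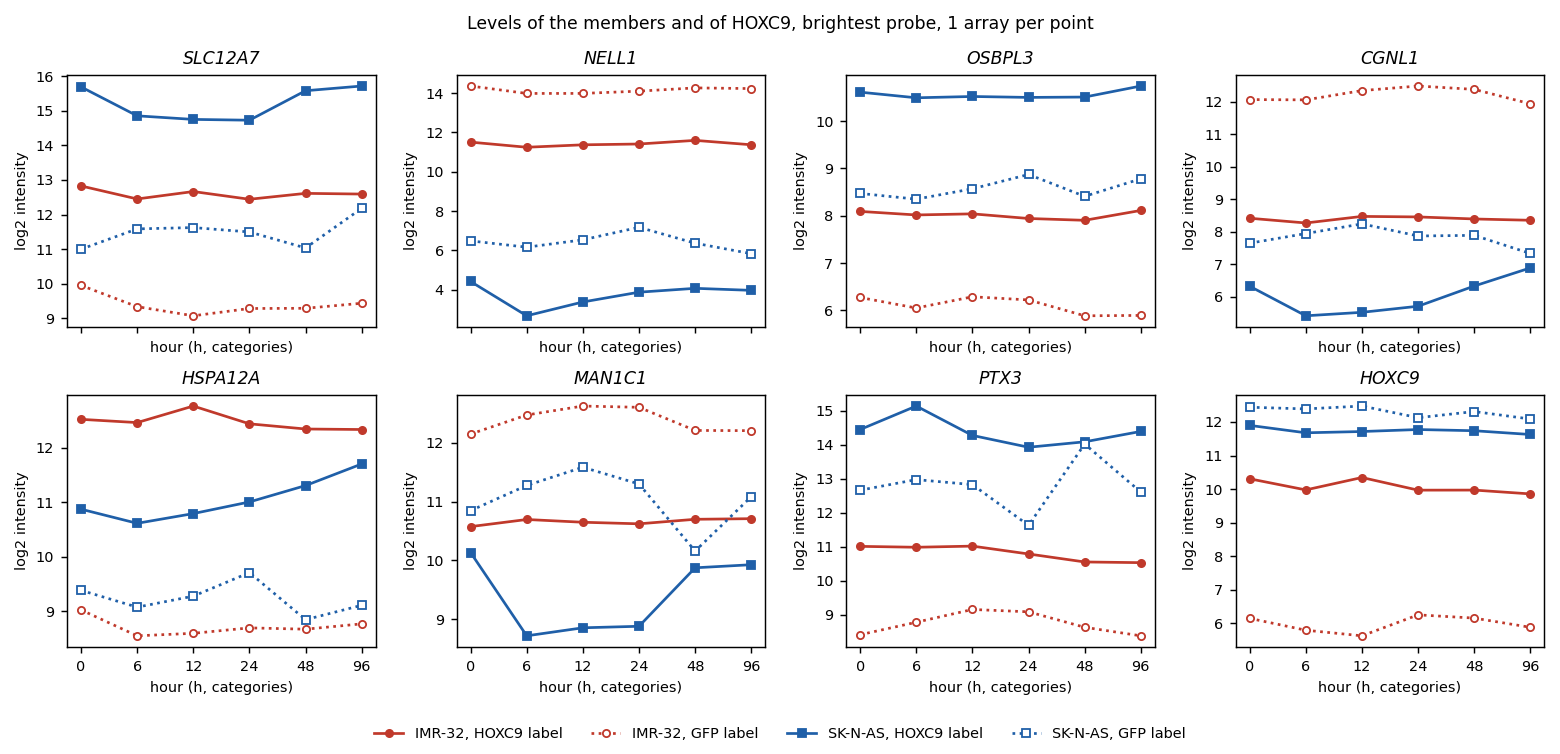
Log2 intensity (vertical axis, scaled per panel) of the brightest probe of each member and of HOXC9 against the hour (categories), 1 array per point; filled symbols are HOXC9-labelled arrays and open symbols GFP arrays, circles IMR-32 and squares SK-N-AS. The PTX3 arms of SK-N-AS nearly meet at 48 h, where their difference was 0.07, and the HOXC9 probe lies lower in the HOXC9-labelled SK-N-AS arrays than in the GFP arrays.

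PTX3 encodes a long pentraxin, a secreted pattern-recognition protein made by many cell types in inflammation. In IMR-32 it read 10.53, 10.89 and 11.02 in the HOXC9 arrays, against 8.38, 8.71 and 9.16 in the GFP arrays. In SK-N-AS its levels were 13.93, 14.33 and 15.14 in the HOXC9-labelled arrays, against 11.63, 12.74 and 14.02 in the GFP arrays. PTX3 is the one member whose brightest probe had overlapping arms, in SK-N-AS, where the GFP array of 48 h was the highest of its group. The mean difference was 1.97 ± 0.21 in IMR-32 cells and 1.55 ± 0.89 in SK-N-AS (SD, n = 5 hours each), or 3.91-fold and 2.93-fold. Across hours of SK-N-AS it ran between 0.07 at 48 h and 2.30 at 24 h. PTX3 has a single probe.

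NELL1, a secreted protein with a thrombospondin-like domain that is studied for its part in bone formation, was lower in both lines. In IMR-32 it read 11.25, 11.39 and 11.60 in the HOXC9 arrays, against 13.99, 14.17 and 14.36 in the GFP arrays. For SK-N-AS the levels were 2.67, 3.92 and 4.42 in the HOXC9-labelled arrays, against 5.83, 6.42 and 7.17 in the GFP arrays. The arms did not overlap in either line, but every SK-N-AS value lay below log2 7.28, so the SK-N-AS difference is one between dim signals. The mean difference of NELL1 was -2.72 ± 0.09 in IMR-32 cells and -2.82 ± 0.70 in SK-N-AS (SD, n = 5 hours each). With 16 units added to each intensity before the logarithm, the SK-N-AS difference was -1.84. NELL1 has a single probe.

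CGNL1 encodes paracingulin, which sits on the cytoplasmic side of tight and adherens junctions. In IMR-32 it read 8.27, 8.40 and 8.47 in the HOXC9 arrays, against 11.93, 12.20 and 12.48 in the GFP arrays. In SK-N-AS it read 5.41, 6.01 and 6.89 in the HOXC9-labelled arrays, against 7.33, 7.88 and 8.24 in the GFP arrays. The arms did not overlap, and the IMR-32 distance was the wider. CGNL1 was lower, by -3.85 ± 0.18 in IMR-32 cells and -1.88 ± 0.92 in SK-N-AS (SD, n = 5 hours each), folds of 14.4 and 3.69. In SK-N-AS the difference ran between -2.72 at 12 h and -0.44 at 96 h. The dimmer second CGNL1 probe gave -4.24 in IMR-32 cells and -0.68 ± 1.32 in SK-N-AS, where its arms overlapped and 3 of 5 hours had the negative sign.

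HSPA12A, an atypical HSP70 relative, read 12.34, 12.45 and 12.77 in the HOXC9 arrays of IMR-32, against 8.55, 8.68 and 9.03 in the GFP arrays. The SK-N-AS values were 10.61, 10.94 and 11.70 in the HOXC9-labelled arrays, against 8.85, 9.19 and 9.71 in the GFP arrays. The arms did not overlap in either line. The mean difference of HSPA12A was 3.81 ± 0.24 in IMR-32 cells and 1.88 ± 0.60 in SK-N-AS (SD, n = 5 hours each), or 14.1-fold and 3.68-fold. Its second probe, with no array above 4.02, gave 2.80 in IMR-32 cells and 1.08 in SK-N-AS, where its arms overlapped.

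MAN1C1 encodes a Golgi alpha-1,2-mannosidase. In IMR-32 it read 10.57, 10.67 and 10.71 in the HOXC9 arrays, against 12.15, 12.34 and 12.62 in the GFP arrays. In SK-N-AS it read 8.72, 9.38 and 10.13 in the HOXC9-labelled arrays, against 10.16, 11.18 and 11.58 in the GFP arrays. The arms did not overlap, though in SK-N-AS the lowest GFP array, at 48 h, lay just above the highest HOXC9-labelled array. The mean difference of MAN1C1 was -1.75 ± 0.24 in IMR-32 cells and -1.83 ± 1.06 in SK-N-AS (SD, n = 5 hours each). In SK-N-AS it ran between -2.73 at 12 h and -0.28 at 48 h, and averaged -2.57 over 6, 12 and 24 h but -0.72 over 48 and 96 h. The other MAN1C1 probes gave -1.94 and -1.85 in IMR-32 and -1.24 and -1.17 in SK-N-AS, where the arms of both overlapped.

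**Figure D2:**
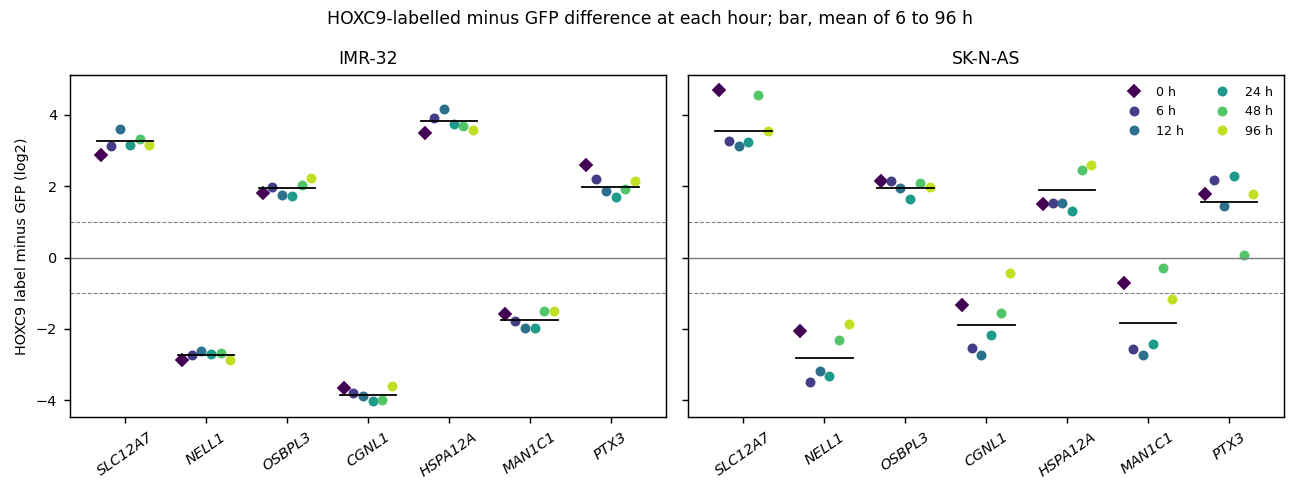
HOXC9-labelled minus GFP difference in log2 intensity (vertical axis) of each member's brightest probe, with 1 point per hour (the diamond is 0 h), bars at the mean of 6 to 96 h and dashed lines at 1 and -1, in IMR-32 (left) and SK-N-AS (right). The SK-N-AS points scatter more than those of IMR-32 for 6 of the members, and the CGNL1 point of 96 h, the MAN1C1 points of 0 and 48 h and the PTX3 point of 48 h lie inside the dashed lines.

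The criterion was also read hour by hour, as a description. The hours from 6 to 96 h made up the mean that chose the members, so the member counts there largely follow from that choice. All 7 members met the criterion at 6, 12 and 24 h, where 1.98%, 2.37% and 2.22% of all genes did. At 48 h it was met by 5 members, without MAN1C1 and PTX3 (2.49% of all genes), and at 96 h by 6, without CGNL1 (2.59%). At 0 h it was met by 6 members, without MAN1C1 (2.3%). The differences were thus present in the earliest arrays: at 0 h SLC12A7 differed by 2.87 in IMR-32 cells and 4.69 in SK-N-AS, NELL1 by -2.86 and -2.07, and CGNL1 by -3.65 and -1.33. The labels leave unsaid whether 0 h precedes transgene expression.

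With SK-N-AS reduced to 48 and 96 h, 5 members met the criterion (1.49% of all genes), MAN1C1 and PTX3 missing at -0.72 and 0.92. With SK-N-AS at 0, 48 and 96 h, a setting chosen after seeing the data, 6 members met it (1.27%), again without MAN1C1. Both settings hold hours that entered the choice of members, so these counts too largely follow from it. Of the 7 kinds of cell type markers summed, only those whose sums did not overlap between the arms of a line are given here. The sums of the other kinds overlapped, among them those of leukocyte and epithelial markers in SK-N-AS. In SK-N-AS the log2 intensities of the 5 fibroblast markers summed to 60.4 to 63.9 in the HOXC9-labelled arrays, against 55.5 to 60.3 in the GFP arrays, with 5 and 4 of the 5 above log2 7.28 on average. The 5 markers of mesenchymal-type neuroblastoma summed to 45.2 to 47.3, against 37.7 to 40.3, with 3 of 5 above that level in both arms, and the 4 endothelial markers to 13.0 to 17.1, against 19.1 to 21.6, with 0 and 1 above it. In IMR-32 the endothelial sums were 10.4 to 12.0 in the HOXC9 arrays, against 8.21 to 9.71 in the GFP arrays, with 0 of 4 above the level in either arm, and the sums of 4 epithelial markers were 25.4 to 26.2, against 27.5 to 39.2, with 2 of 4 above it in both arms. The part of these markers in the members' differences was not tested.

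Members nearest to the threshold by the smaller of the 2 differences were PTX3 at 1.55, MAN1C1 at 1.75 and HSPA12A at 1.88. Just under it, at 0.98 to 0.99, lay CD52, NKX6-1 and MTTP, all dim, with mean levels of 3.76, 2.80 and 3.79. Among genes above log2 7.28 the next below were MFAP2 (-0.98 in IMR-32, -2.12 in SK-N-AS), FAM110D (-2.87, -0.97) and FBLIM1 (1.33, 0.96). Of all genes, 9.52% differed by 1 or more in IMR-32 cells and 12.4% in SK-N-AS. Genes passing in both lines with opposite signs numbered 266 (1.55%), against the 201 with the same sign. Of the 201, 168 were higher (0.977%) and 33 lower (0.192%). Above log2 7.28 those with opposite signs numbered 74 (0.717%) and those with the same sign 45 (0.436%).

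**Figure D3:**
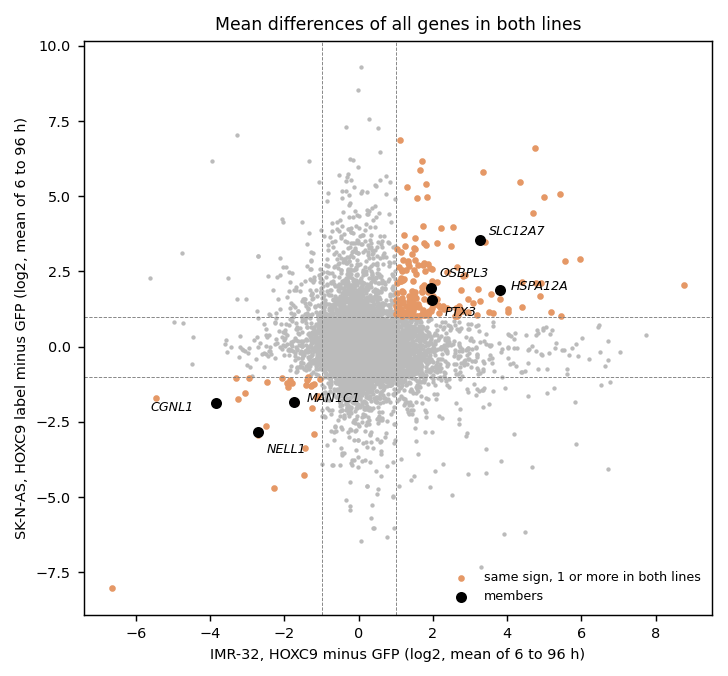
Mean HOXC9-labelled minus GFP difference (log2, 6 to 96 h) of each gene in IMR-32 (horizontal axis) and SK-N-AS (vertical axis); black points are the members, orange points the other genes of the same sign and 1 or more in both lines, grey points all other genes and dashed lines 1 and -1. SLC12A7, OSBPL3, HSPA12A and PTX3 lie in the upper right and NELL1, CGNL1 and MAN1C1 in the lower left, as the choice of members required.

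How the members differ between the lines without the HOXC9 label was asked in the 12 GFP arrays. The contrast between lines did not enter the choice, but the GFP arrays of 6 to 96 h did. All 7 differed between SK-N-AS and IMR-32 (limma, adjusted p under 0.05), as did 68% of all genes, 38.3% higher in SK-N-AS and 29.7% lower. The 4 that were higher in the HOXC9-labelled arrays were also higher in SK-N-AS, and the 3 that were lower were also lower in SK-N-AS. The share of all genes with such matching directions was not counted, so the match is given as a description only. PTX3 averaged 12.79 ± 0.77 in SK-N-AS and 8.74 ± 0.33 in IMR-32 (SD, n = 6), a difference of 4.04 ± 0.33 (SE; limma adjusted p = 4.04e-05). OSBPL3 averaged 8.58 ± 0.21 in SK-N-AS and 6.10 ± 0.18 in IMR-32, a difference of 2.48 ± 0.11 (limma adjusted p = 1.92e-06). SLC12A7 averaged 11.49 ± 0.44 in SK-N-AS and 9.40 ± 0.30 in IMR-32, and differed by 2.09 ± 0.22 (limma adjusted p = 0.000156). HSPA12A had the smallest distance, 9.23 ± 0.30 in SK-N-AS and 8.72 ± 0.17 in IMR-32, at 0.52 ± 0.12 (limma adjusted p = 0.00691), and its ranges overlapped.

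NELL1 had the widest distance among the members, averaging 6.42 ± 0.45 in SK-N-AS and 14.16 ± 0.16 in IMR-32, a difference of -7.73 ± 0.18 (SE; limma adjusted p = 1.06e-07). CGNL1 averaged 7.82 ± 0.31 in SK-N-AS and 12.21 ± 0.22 in IMR-32, at -4.39 ± 0.10 (limma adjusted p = 7.77e-08). MAN1C1 averaged 11.04 ± 0.50 in SK-N-AS and 12.38 ± 0.21 in IMR-32, at -1.34 ± 0.14 (limma adjusted p = 0.000139). Each of the 7 had the same direction at all 6 hours. Of the 15 member probes, the second HSPA12A probe did not pass, at 0.85 ± 0.40 (limma adjusted p = 0.103).

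Over the 4 groups the members, by their brightest probes, followed different orders. SLC12A7 was highest in the HOXC9-labelled SK-N-AS arrays (mean 15.22), then in the HOXC9 arrays of IMR-32 (12.60), the GFP arrays of SK-N-AS (11.49) and those of IMR-32 (9.40), with no overlap between neighbours. For OSBPL3 and PTX3 both SK-N-AS groups stood above both IMR-32 groups, and for NELL1 and CGNL1 both IMR-32 groups stood above both SK-N-AS groups. HSPA12A was highest in the HOXC9 arrays of IMR-32 (12.48). MAN1C1 was highest in the GFP-expressing IMR-32 cells (12.38) and lowest in the HOXC9-labelled SK-N-AS arrays (9.40), and its GFP arrays of SK-N-AS overlapped the HOXC9 arrays of IMR-32. Dimmer probes did not keep all of these orders: 1 OSBPL3 probe averaged 6.91 in the GFP arrays of SK-N-AS and 7.04 in the HOXC9 arrays of IMR-32, with overlapping ranges. For the second CGNL1 probe and 1 SLC12A7 probe the same pair of groups overlapped as well.

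Whether the difference between arms changed with time was tested as a slope per doubling of the hour over 6 to 96 h. The coding makes noise in the slope uncorrelated with noise in the mean difference used for the choice. That mean drew largely on 6, 12 and 24 h, so the choice can still favour genes with large differences at those hours. In SK-N-AS, MAN1C1 averaged -2.57 over those hours and -0.72 over 48 and 96 h. In IMR-32 the slopes of the 7 members lay close to 0 and 0 passed (limma adjusted p = 0.999968 for each). No gene passed there at an adjusted p under 0.05, and 689 of the 17199 did at an unadjusted p under 0.05. The SE of a gene's slope was the same in both lines, so these IMR-32 calls also carry the SK-N-AS spread. In SK-N-AS 0 of the 7 members passed, where 69 of all genes did (0.401%) and 4437 had an unadjusted p under 0.05 (25.8%). The largest slopes were those of CGNL1 at 0.53 ± 0.10 (SE; limma adjusted p = 0.0578), MAN1C1 at 0.52 ± 0.16 (0.0983), NELL1 at 0.41 ± 0.07 (0.0578) and HSPA12A at 0.31 ± 0.09 (0.0999). For the first 3 a positive slope is a negative difference nearing 0. SLC12A7 had a slope of 0.20 ± 0.13 (limma adjusted p = 0.369), OSBPL3 of -0.02 ± 0.07 (0.888) and PTX3 of -0.21 ± 0.20 (0.540).

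The member calls in this trend depended on the setting. With only genes averaging above log2 7.28 over all arrays, 4 members passed in SK-N-AS, as did 17.2% of the 10319 genes then tested. The 4 were NELL1 and CGNL1 (limma adjusted p = 0.0165 each), MAN1C1 (0.0386) and HSPA12A (0.0406). All SK-N-AS values of NELL1, and those of CGNL1 in the HOXC9-labelled SK-N-AS arrays, lay below that level. Their slopes therefore still rest on dim signals. The hours 6, 12 and 24 are those at which the HOXC9-labelled SK-N-AS arrays stood apart, so a trend with time and that split cannot be told apart in these data. The test of the slopes between lines, SK-N-AS minus IMR-32, called 0 of all genes and 2740 at an unadjusted p under 0.05. It gave 0.44 ± 0.10 for NELL1 and 0.50 ± 0.14 for CGNL1 (SE; limma adjusted p = 0.224 each). In the GFP arrays alone, with a single slope for both lines, 0 members and 0 of all genes passed, and 502 genes had an unadjusted p under 0.05. A shared slope can miss a change in a single line or opposite changes in the lines. The member slopes there were between -0.05 and 0.03.

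**Figure D4:**
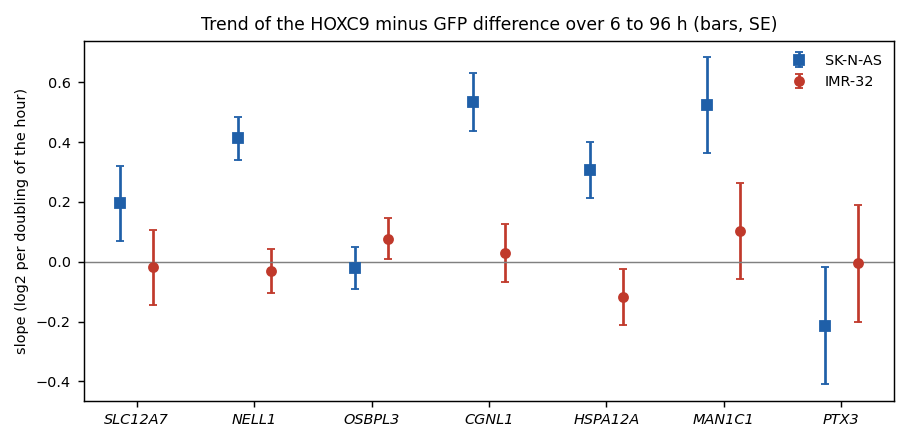
Slope of the HOXC9 minus GFP difference (log2 per doubling of the hour, 6 to 96 h) of each member in SK-N-AS (blue squares, left of each pair) and IMR-32 (red circles), with bars of 1 SE. In SK-N-AS the slopes of CGNL1, MAN1C1, NELL1 and HSPA12A lie between 0.31 and 0.53, and those of IMR-32 lie near 0.

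To see whether relatives of the members moved with them, 7 families were listed, and 57 of 61 listed genes were measured. In IMR-32, 13 relatives rose and 9 fell in the HOXC9 arrays (38.6%, against 24% of all genes, 12.6% higher and 11.4% lower), with a median difference of 0.17 over the relatives and -0.01 over all genes. In SK-N-AS, 16 rose and 9 fell in the HOXC9-labelled arrays (43.9%, against 42.2% of all genes, 20.8% higher and 21.4% lower), with medians of 0.06 and -0.02. In both lines 11 passed, and 2 of these, NPTX1 and COMP, had the same sign. Over all genes, 11.9% passed in both lines and 4.63% did so with the same sign.

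NPTX1, a pentraxin secreted by neurons that gathers at synapses, was the only 1 of the 57 measured relatives to differ by 1 or more with the same sign in both lines. Of all genes, 1.17% did so. In IMR-32 NPTX1 read 9.59 to 10.08 in the HOXC9 arrays, against 3.68 to 4.64 in the GFP arrays. SK-N-AS levels were 7.73 to 10.65 in the HOXC9-labelled arrays, against 2.24 to 5.31 in the GFP arrays. The arms did not overlap in either line, and the GFP arrays were dim. NPTX1 rose by 5.42 ± 0.28 (SE; limma adjusted p = 4.27e-07) in IMR-32 and by 5.09 ± 0.28 (limma adjusted p = 4.59e-07) in SK-N-AS. Its mean level, 6.67, lay below log2 7.28. The related neuronal pentraxin NPTX2 rose by 0.61 ± 0.19 in IMR-32 (limma adjusted p = 0.0382, but 0.104 without 6 h, 0.165 without 12 h, 0.104 without 24 h and 0.0770 with SK-N-AS at 48 and 96 h alone) and fell in SK-N-AS, at -3.55 ± 0.19. COMP, a cartilage matrix thrombospondin, rose by 0.94 ± 0.16 in IMR-32 (limma adjusted p = 0.00180) and by 0.49 ± 0.16 in SK-N-AS (limma adjusted p = 0.0281), where the call was lost without 6, 12, 24 or 48 h (adjusted p = 0.0747 to 0.119) and with 48 and 96 h alone (0.388). With the mean of both COMP probes, it passed in neither line, at 0.71 in IMR-32 (adjusted p = 0.110) and 0.67 in SK-N-AS (0.103).

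Close relatives of NELL1, HSPA12A and MAN1C1 did not pass in the member's direction in both lines. NELL2 is the nearest relative of NELL1 and known from neurons. In the HOXC9 arrays of IMR-32 it read 13.62 to 13.91, against 13.33 to 13.49 in the GFP arrays. These ranges did not overlap, but the difference of 0.21 ± 0.13, whose SE pools both lines, did not pass (limma adjusted p = 0.286). With SK-N-AS at 48 and 96 h alone, the IMR-32 SE was 0.07 and the limma adjusted p 0.0528. In SK-N-AS NELL2 read 7.22 to 8.30 in the HOXC9-labelled arrays, against 12.13 to 12.92 in the GFP arrays. It fell there, at -4.63 ± 0.13 (limma adjusted p = 5.72e-09). HSPA12B, the paralog of HSPA12A, fell in IMR-32, at -2.05 ± 0.25 (limma adjusted p = 0.000265), where HSPA12A was higher. It did not pass in SK-N-AS (0.50 ± 0.25, limma adjusted p = 0.137), where it passed with 48 and 96 h alone, at 1.39 (adjusted p = 0.000517). MAN1A1, a Golgi mannosidase like MAN1C1, rose by 1.22 ± 0.15 in IMR-32 (limma adjusted p = 0.000268), where MAN1C1 was lower, and did not pass in SK-N-AS (-0.21 ± 0.15, limma adjusted p = 0.282, but -0.39 and 0.0288 without 48 h).

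Of the 8 measured junction genes, 4 rose in IMR-32 and 0 fell, among them cingulin, CGN, at 0.96 ± 0.18 (limma adjusted p = 0.00362) and the scaffold TJP1 at 0.81 ± 0.14 (0.00213). In SK-N-AS 0 rose and 4 fell, with TJP1 at -0.57 ± 0.14 (limma adjusted p = 0.00835, but 0.0527 without 12 h, 0.0524 without 24 h and 0.467 with 48 and 96 h alone) and CGN at -0.05 ± 0.18 (0.850). The SK-N-AS effect minus the IMR-32 effect was -1.38 ± 0.20 for TJP1 (limma adjusted p = 0.000407) and -1.01 ± 0.25 for CGN (0.0105), as against 40.6% of all genes with such a difference between lines, 20.1% positive and 20.5% negative. The cation-chloride cotransporters held 0 that rose and 4 that fell of 7 in IMR-32, and 2 that rose and 0 that fell in SK-N-AS. Of these, SLC12A8, a distant and dim relative, fell in IMR-32, at -2.32 ± 0.21 (limma adjusted p = 2.87e-05), and rose by 1.88 ± 0.21 in SK-N-AS (7.57e-05).

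Among 11 oxysterol-binding relatives of OSBPL3, 0 rose and 1 fell in IMR-32, and 3 rose and 2 fell in SK-N-AS. Among 14 HSP70 genes, 2 rose and 2 fell in IMR-32, and 4 rose and 1 fell in SK-N-AS. HSPA5, the chaperone BiP of the endoplasmic reticulum, rose by 1.61 ± 0.16 in SK-N-AS (limma adjusted p = 4.29e-05), and the IMR-32 value was 0.41 ± 0.16 (0.0990). HSPA5 passed in IMR-32 too, with the sign of SK-N-AS, with the mean of both its probes (0.47, limma adjusted p = 0.00903) and when SK-N-AS was reduced to 48 and 96 h in the fit (0.41, limma adjusted p = 0.00236). Of the 6 class I mannosidase genes, 1 rose and 2 fell in IMR-32, and 4 rose and 0 fell in SK-N-AS. Among those, EDEM3, which acts in disposal of misfolded glycoproteins, rose by 1.04 ± 0.09 (limma adjusted p = 1.16e-05). Of the 6 NEL-like and thrombospondin genes, 3 rose and 0 fell in IMR-32, and 2 rose and 1 fell in SK-N-AS. Of the 5 pentraxins, 3 rose and 0 fell in IMR-32, and 1 rose and 1 fell in SK-N-AS.

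**Figure D5:**
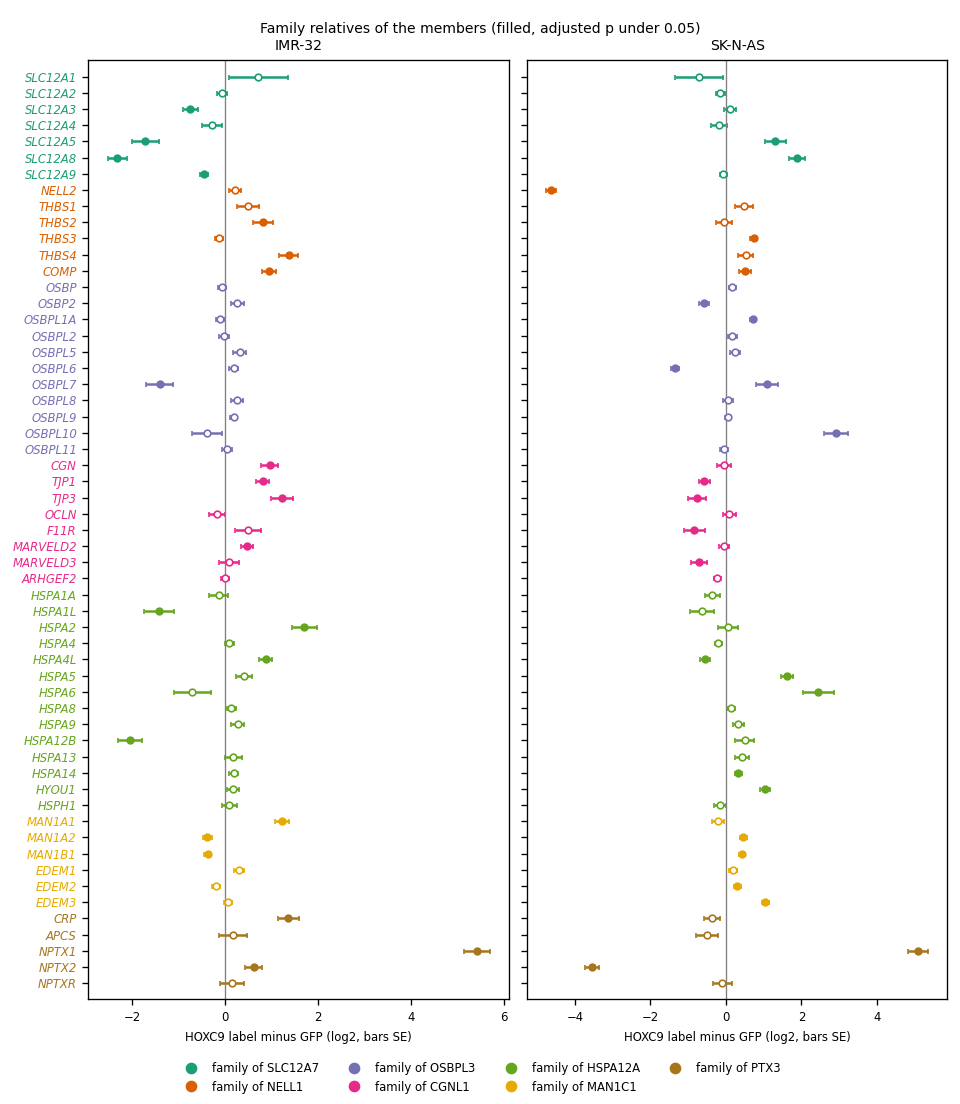
HOXC9-labelled minus GFP difference (log2, 6 to 96 h, bars of 1 SE) of the 57 measured relatives, coloured by the member whose family they belong to, in IMR-32 (left) and SK-N-AS (right); filled points have a limma adjusted p under 0.05. NPTX1 lies above 5 in both lines, and NELL2 and NPTX2 lie at -4.63 and -3.55 in SK-N-AS.

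The genes most like each member over the 24 arrays were ranked by Pearson's r as a description; the arrays fall into 4 groups that the genes share. For SLC12A7 they were BCL6 (r = 0.955), CDH15 (0.950) and PLEKHG1 (0.949). For NELL1 they were ISL1 (r = 0.990), FMOD (0.990) and DHRS13 (0.988), and for OSBPL3 ATP1B2 (0.975), DTNA (0.975) and EGLN3 (0.974). For CGNL1 they were NOTCH4 (r = 0.967), SOX8 (0.957) and ACOT2 (0.954), and for HSPA12A FGF13 (0.976), TMPRSS15 (0.940) and SLC18B1 (0.939). For MAN1C1 they were LRRTM1 (r = 0.954), BCL2L11 (0.944) and ZNF33A (0.933), and for PTX3 NABP1 (0.983), ANXA2 (0.979) and SMAD1 (0.978).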

How the data were processed

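RNA of both neuroblastoma lines was labelled with Cy3 and hybridised to 44K one-colour oligonucleotide arrays. Per the submitters' processing notes the authors used limma; its version and the background correction are not given in the sources used here. The authors deposited 24 columns of linear intensity for 44708 features, which range from 1.32 to 309395 units and share 1 distribution; no depth applies to them. Their log2 was taken with no offset.

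Probes were named through the platform annotation: 27942 probes have 1 symbol and 16766 none. Of 17370 symbols, 14295 were current, 2937 were updated through a synonym, 129 had several possible updates and 9 were not found, and both of the last kinds were kept. Each of 17199 genes was represented by its brightest probe, and the other probes of the members are given beside it. The tests fitted limma 3.58.1 (R 4.3.3, eBayes, two-sided) to all genes, with Benjamini-Hochberg adjustment over all of them and a threshold of 0.05. Lines were compared within the GFP arrays, blocking on hour. The trends and the effects of relatives used the 20 arrays of 6 to 96 h with line-by-hour blocks. Each fit took its residual spread from both lines together. The GFP trend fitted a single slope for both lines against log2(1 + h/6). Same-hour arrays of both arms did not deviate together throughout: the correlation of their deviations from group means ran between 0.03 and 0.14 for IMR-32, between -0.09 and 0.16 for SK-N-AS, and between -0.05 and 0.06 for the GFP arrays of both lines.

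The members and the family and marker lists were chosen with earlier results of these data known. Named genes were the members, HOXC9, up to 2 relatives per family and line with the smallest p, the 3 genes most correlated with each member, and the genes next to the threshold, for which a second set among brighter genes was chosen after values were seen. The alternatives were other offsets, scalings, probe choices, filters on dim genes, eBayes settings, hours and blocks. Fits were tested on simulated data. Tables and figures were made with Python 3.11.15, pandas 2.3.3, numpy 2.4.6 and matplotlib 3.10.9. Promoter windows came from RefSeq, GRCh38.p14.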

Additional observations from a re-analysis of the deposited data

Results flagged for a closer look

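The effect of the HOXC9 label differed between the lines for 19 of the 23 named relatives, by the interaction term in limma over 6 to 96 h (SK-N-AS effect minus IMR-32 effect, log2, adjusted p under 0.05). These 23 were named for the smallest p of the same HOXC9 minus GFP effect within a line, a choice that favours differences between lines. Their share is therefore not to be set against that of all genes. Of all 57 measured relatives 31 differed, and of all genes 40.6%. The difference was positive for SLC12A8 (4.20), SLC12A5 (3.02), HSPA12B (2.54), OSBPL7 (2.48), HSPA5 (1.20), EDEM3 (0.99), THBS3 (0.87), HYOU1 (0.85), OSBPL1A (0.84) and MAN1B1 (0.80). It was negative for NELL2 (-4.84), NPTX2 (-4.17), CRP (-1.74), HSPA2 (-1.65), OSBPL6 (-1.54), MAN1A1 (-1.43), TJP1 (-1.38), CGN (-1.01) and THBS4 (-0.85). The adjusted p lay between 6.62e-08 for NELL2 and 0.0356 for THBS4. SLC12A8, SLC12A5, HSPA12B, OSBPL7, CRP and CGN rest on dim probes, with mean levels of 6.02, 2.40, 4.26, 4.81, 1.55 and 5.04. THBS4 lost its call when 6, 12, 24 or 96 h was left out, at -0.77, -0.80, -0.81 and -0.71, and with 48 and 96 h of SK-N-AS alone, as did CGN and HYOU1. The SK-N-AS arms are those whose HOXC9 probe went against the label. Of 32 groups of 6 arrays examined for a single array far from the rest, 0 held one.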

How the results depend on the processing

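All 7 members kept the sign and the size of 1 under an offset of 16 units, median centring, the mean of all probes, 0 to 96 h and each left-out hour, and 5 or 6 did so with fewer hours of SK-N-AS or 0 h alone. Apart from 0 h alone, these settings reuse values that chose the members, so such counts largely follow from the choice. Of 168 recomputed member differences, 149 moved by less than 1 SD of the hours and 19 by more, the cause of which was not tested. All 7 differences between lines in the GFP arrays kept their call under every alternative run. The SK-N-AS trend changed most: the 0 members and 69 genes called became 1 and 1330 with an offset of 16 units, 4 and 1778 among genes above the 40th percentile, 2 and 1278 with trend and robust eBayes, and 3 members and 1575 genes with no replicate block. It called 0 genes over 0 to 96 h, 0 to 1 genes with each hour left out, and 50 genes with 0, 48 and 96 h of SK-N-AS, an alternative chosen after seeing the data. The cause was not tested.

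Among genes above the 40th percentile, which tests fewer genes, relatives called were 10 in IMR-32, against 22 over all genes, and differences between lines 18, against 31. The filter also removed relatives, so these counts are of unlike sets. It kept 2 of 7 cation-chloride cotransporters, 4 of 6 NEL-like and thrombospondin genes, 8 of 11 oxysterol-binding genes and 3 of 8 junction genes. Of the HSP70 genes it kept 11 of 14, of the mannosidases 6 of 6 and of the pentraxins 1 of 5. All genes called were then 2387 in IMR-32 (4130 in all) and 4599 for the difference between lines (6985 in all). With 48 and 96 h of SK-N-AS alone, 3783 genes were called there, against 7258. With each hour left out, 2530 to 4227 genes were called in IMR-32, fewest without 12 h, then 2575 without 6 h and 2705 without 24 h. MARVELD3 in IMR-32 reversed to -0.47 with the mean of all probes (adjusted p = 0.0249), against 0.08. With no replicate block, 12083 genes were called between the lines in GFP arrays, 4385 for IMR-32 and 7324 for SK-N-AS. Other calls of single relatives changed 54 times in 804 recomputed values. Precision is limited by 1 array per line, label and hour, by probes near the lowest intensity (log2 0.41), and by the HOXC9 probe of SK-N-AS.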

Other observations

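The leukocyte marker PTPRC stood above log2 7.28 in both arms of SK-N-AS and in neither arm of IMR-32, while the other 2 measured leukocyte markers stood below that level in all 4 groups. CD44, a surface marker of mesenchymal-type neuroblastoma that was singled out after its values were seen, averaged 5.07 in the HOXC9-labelled arrays and 1.17 in the GFP arrays of SK-N-AS, and 6.01 in the HOXC9 arrays and 6.37 in the GFP arrays of IMR-32. Each of these means lay below log2 7.28. Of the 5 listed markers of that type, which summed higher in the HOXC9-labelled SK-N-AS arrays, the highest mean was 17.08 there and 17.25 in the GFP arrays. In IMR-32 VIM, the only marker of the 5 above log2 7.28, averaged 15.89 in the HOXC9 arrays and 14.74 in the GFP arrays.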
